A study of Rattus norvegicus with 6 samples.

Results

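The Gadd45 family comprises 3 genes, Gadd45a, Gadd45b and Gadd45g, and all 3 were found among the 14506 genes of the array that carry a single gene symbol, each through 1 transcript cluster (a set of probes spread along one transcript). The expression values come from embryonic day 13.5 rat cultures labelled as motor neurons. These were grown for 2 days and exposed for 2 h to 1 microM camptothecin or to an equal volume of DMSO, its solvent. Camptothecin, an alkaloid first isolated from a tree, locks topoisomerase 1 onto DNA in the act of cutting it. There were 3 arrays with camptothecin and 3 with DMSO, labelled as biological replicates. No genetic alteration is named for either group. Nothing in the labels tells whether replicates came from separate dissections, and the p-values cover the spread among these arrays only.

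Gadd45 proteins are small acidic nuclear proteins without enzymatic activity that are made in response to DNA damage and other stresses. They bind and activate the kinase encoded by Map3k4, which feeds the p38 and JNK MAP kinases, and they bind Pcna, the Cdkn1a product and the Cdk1 kinase, through which they slow the cell cycle. Gadd45a is a classical target of p53 and BRCA1, Gadd45b of NF-kB and TGF-beta signalling, and Gadd45g of cytokines. In mice, Gadd45b is an activity-induced neuronal gene linked to DNA demethylation at genes such as Bdnf, and Gadd45g marks precursors that are committing to a neuronal fate.

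The 3 genes are compact and lie on different chromosomes. In the rat assembly GRCr8, Gadd45a is on chromosome 4 and spans 2.30 kb, Gadd45b is on chromosome 7 with a span of 2.30 kb, and Gadd45g is on chromosome 17 with a span of 1.75 kb. Their promoter windows are shown because all 3 genes were called higher after camptothecin and the windows let their control regions be compared. Each runs from 250 bases before to 50 bases after the transcription start used by RefSeq, on the minus strand of GRCr8 (Gadd45a chr4:97486750-97487049, Gadd45b chr7:9430669-9430968, Gadd45g chr17:13530302-13530601). For Gadd45b that start lies 273 bases inside the annotated span. The sequences are from RefSeq, written 5′ to 3′, and capitals mark the motif matches described next.
Gadd45a: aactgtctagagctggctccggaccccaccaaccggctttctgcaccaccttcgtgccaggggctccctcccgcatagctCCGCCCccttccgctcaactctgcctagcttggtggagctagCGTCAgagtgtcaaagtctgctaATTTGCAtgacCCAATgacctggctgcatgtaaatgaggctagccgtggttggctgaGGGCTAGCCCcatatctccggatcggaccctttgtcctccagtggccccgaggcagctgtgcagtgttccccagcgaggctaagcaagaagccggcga
Gadd45b: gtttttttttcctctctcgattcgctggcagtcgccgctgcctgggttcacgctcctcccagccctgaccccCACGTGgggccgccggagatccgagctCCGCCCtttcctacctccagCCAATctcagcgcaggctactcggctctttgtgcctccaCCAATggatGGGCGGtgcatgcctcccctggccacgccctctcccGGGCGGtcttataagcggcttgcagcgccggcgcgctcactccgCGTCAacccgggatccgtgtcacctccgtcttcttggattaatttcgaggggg
Gadd45g: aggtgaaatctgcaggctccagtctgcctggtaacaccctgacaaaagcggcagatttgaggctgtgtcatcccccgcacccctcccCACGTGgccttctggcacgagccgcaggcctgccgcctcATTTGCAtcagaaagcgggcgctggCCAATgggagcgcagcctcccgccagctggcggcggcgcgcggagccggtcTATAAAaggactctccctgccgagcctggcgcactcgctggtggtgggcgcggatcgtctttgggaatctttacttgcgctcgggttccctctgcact

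The windows had 14 CG dinucleotides in Gadd45a, 27 in Gadd45b and 24 in Gadd45g, where the median over the 33469 rat promoter windows of that length was 7. Motifs were searched on both strands. The CCAAT box (CCAAT) was present in all 3 windows, once in Gadd45a and Gadd45g and at 2 places in Gadd45b, and 37.5% of all windows hold it. The GC box (GGGCGG) was in Gadd45a and, at 3 places, in Gadd45b, against 33.1% of all windows.

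The cyclic AMP half-element (TGACG) was in Gadd45a and Gadd45b, against 21.2% of windows. The E-box (CACGTG) was in Gadd45b and Gadd45g, against 6.42%. A TATA box (TATAAA) was in Gadd45g alone among the 3, beginning at position -48 from the start, against 14.2%. Only these exact letters were searched, so near matches such as the tataag in the Gadd45b window were not counted. A p53 half-site was in Gadd45a alone, also beginning at position -48, and 7.98% of windows have 1. The octamer core (ATTTGCA), a motif added after the sequences had been seen, was in Gadd45a and Gadd45g, against 4.05%. No match was found for the AP-1 element (TGAGTCA), the forkhead element (TGTTTAC), the CArG box or the NF-kB site, which are in 4.63%, 3.78%, 1.64% and 4.18% of windows. No match overlapped another in these 3 windows. Sequence outside the windows was not searched, so sites in introns or further upstream would be missed. A half-site is only part of a full p53 site.

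**Figure D1:**
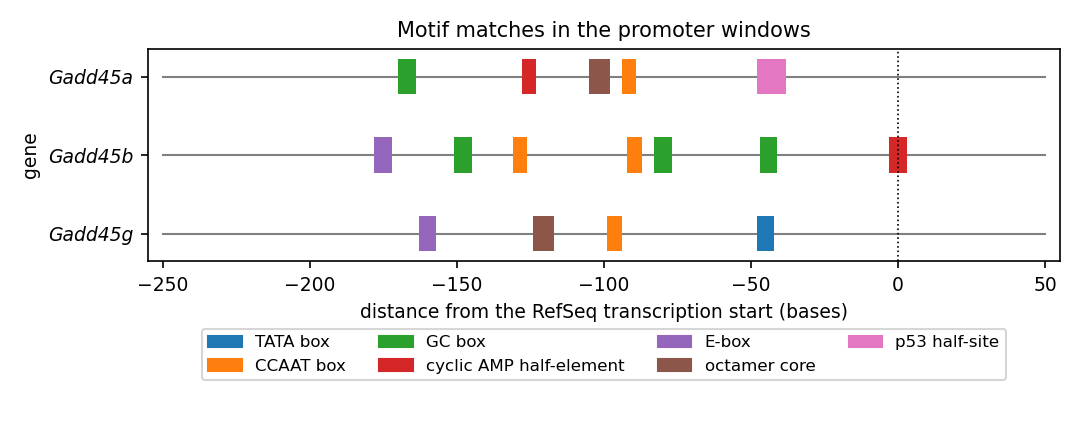
Positions of the motif matches in the promoter windows of the 3 Gadd45 genes, one row per gene, against the distance in bases from the RefSeq transcription start (dotted line). The CCAAT box is the motif that all 3 rows share, and the octamer core lies upstream of it in Gadd45a and Gadd45g.

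All 3 Gadd45 genes rose in camptothecin-treated cultures, Gadd45b the most. Fold changes, with limma's 95% intervals, were 2.78 (2.31 to 3.34) for Gadd45b, 1.63 (1.34 to 1.99) for Gadd45g and 1.34 (1.13 to 1.59) for Gadd45a. Of all 14506 genes, 11.3% were called higher by the same rule (limma, Benjamini-Hochberg adjusted p below 0.05 over all 29214 clusters) and 9.35% lower. Among the 3120 genes spanning under 5 kb, the size class of the Gadd45 genes, 12.4% were called higher and 0.897% lower. The values below are the deposited log2 expression values, and changes are camptothecin minus DMSO on that scale.

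Gadd45b encodes the family member that restrains JNK signalling through the kinase MKK7. Its deposited log2 values were 8.26, 8.68 and 8.47 with camptothecin, against 7.04, 7.04 and 6.91 with DMSO. Every camptothecin array lay more than 1 log2 unit above every DMSO array. The change was 1.47 (SE 0.11, n = 3 per treatment, adjusted p = 0.000335), rank 12 among all 14506 genes by size of increase. Only 0.303% of genes were called higher by 2-fold or more, and Gadd45b was the only family member among them.

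Gadd45g encodes the member known from cytokine responses and from differentiating neuronal precursors. Its log2 values were 6.38, 6.80 and 6.45 with camptothecin, against 5.80, 5.77 and 5.93 with DMSO. The groups did not overlap, and the DMSO values lay close together while camptothecin replicate 2 stood above its fellow arrays. The change was 0.71 (SE 0.12, adjusted p = 0.00894). Gadd45g was dim: its mean over the 6 arrays (6.19) lay just below the median of all cluster means (6.28).

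Gadd45a encodes the founding member, induced by p53 after DNA damage in many cell types. Its log2 values were 7.79, 8.15 and 7.89 with camptothecin, against 7.50, 7.61 and 7.46 with DMSO. The groups did not overlap, but the lowest camptothecin value was only 0.18 above the highest DMSO value. The change was 0.42 (SE 0.10, adjusted p = 0.0344), close to the threshold. It no longer passed after each array was centred on its median (0.36, adjusted p = 0.0702) or on the ribosomal protein genes (0.13, adjusted p = 0.295), nor in 5 of the 6 fits that left out 1 array, with 0.32 (adjusted p = 0.0537) without camptothecin replicate 2 and adjusted p up to 0.106 without DMSO replicate 3.

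Over all genes, 27.1% also had every camptothecin array above every DMSO array, so this separation alone does not set the 3 Gadd45 genes apart. Camptothecin replicate 2 gave the highest value for all 3 members. The same array was the highest of the 3 camptothecin arrays for 70.4% of the 1643 genes called higher. Without it the changes were 1.37 for Gadd45b, 0.58 for Gadd45g and 0.32 for Gadd45a. The scale also mattered. When arrays were instead centred on their ribosomal protein genes, every gene's change shifted by -0.30, and the median over all genes was -0.23, beside 0.06 as deposited. Calls over all 14506 genes were then 280 higher and 5936 lower. On that scale Gadd45b changed by 1.18 and Gadd45g by 0.41, both still past the threshold.

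**Figure D2:**
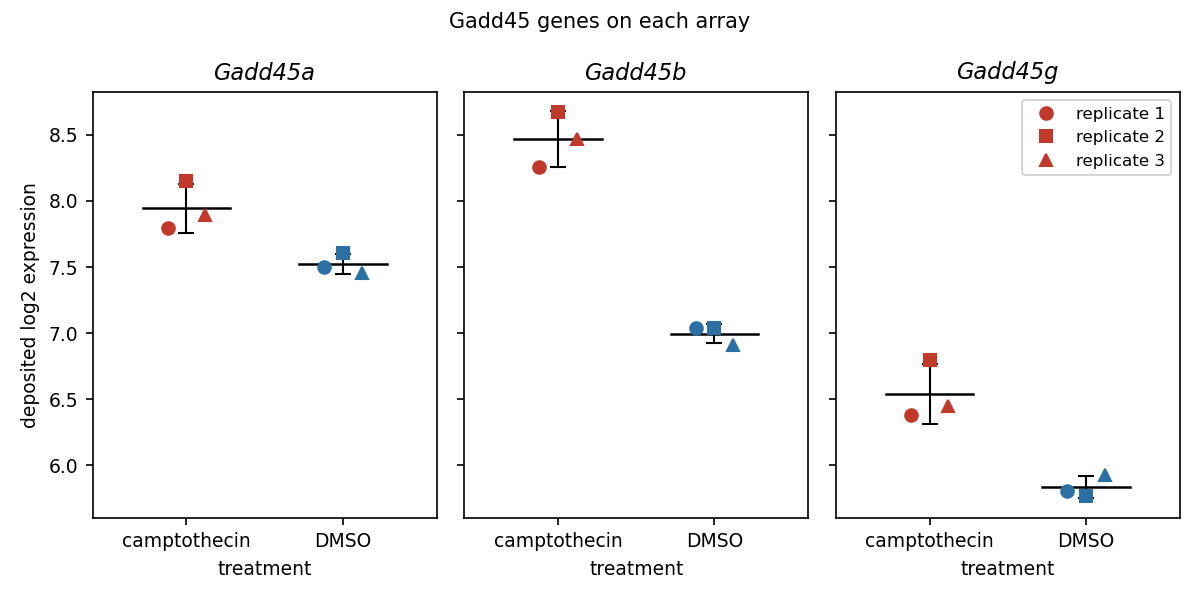
Deposited log2 expression of the 3 Gadd45 genes on each array, camptothecin (red) left of DMSO (blue), with the mean (line) and SD (bar) of the 3 arrays per treatment and a symbol per replicate number. In each panel the 3 camptothecin points lie above the 3 DMSO points, with the widest gap for Gadd45b and the narrowest for Gadd45a. Heights of different genes are not comparable.

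The estimated changes of the 3 members differed in size. The change of Gadd45b exceeded that of Gadd45a by 1.05 (SE 0.05) and that of Gadd45g by 0.77 (SE 0.10), and the change of Gadd45a was below that of Gadd45g by a difference of -0.29 (SE 0.09), all on the log2 scale and from within-array differences. In each of these 3 pairs the camptothecin arrays lay entirely on 1 side of the DMSO arrays. The exact permutation p was 0.1 for each pair (two-sided, n = 3 per treatment, 0.1 after adjustment over the 3 pairs). That is the smallest value 3 arrays against 3 allow, so this test cannot reach the threshold. limma's 95% interval for Gadd45b (1.21 to 1.74) had no overlap with that of Gadd45g (0.42 to 0.99) or Gadd45a (0.17 to 0.67). The intervals of Gadd45g and Gadd45a overlapped each other. The DMSO mean of the dim Gadd45g, 5.84, was close to those of the leukocyte gene Ptprc (5.87) and the muscle gene Myog (5.85), each on its own probes. Its DMSO level was not shown to lie above background, so the size of its change and both differences against it are uncertain.

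Of 12 genes of the MAP kinase cascade on which Gadd45 proteins act, all measured, 3 fell and 1 rose, where 9.35% of all genes were called lower and 11.3% higher. The 3 that fell span 61.0 to 105 kb, and the 9.35% is not matched for span. The median change of the list was 0.01, beside 0.06 over all genes. Over the 16 alternatives 2 to 6 of the list fell and 0 to 2 rose, with 6 falling and 0 rising under ribosomal centring. Under that centring 5936 of all 14506 genes fell and 280 rose. Map3k4, the kinase that Gadd45 proteins bind and activate, had log2 values of 7.19, 7.48 and 7.42 with camptothecin, against 8.31, 8.43 and 8.37 with DMSO. All camptothecin values were lower, and the change was -1.002 (SE 0.09, adjusted p = 0.000709). Map2k4, a kinase one step below that phosphorylates JNK and p38, had 8.58, 8.71 and 8.56 with camptothecin, against 9.63, 9.62 and 9.55 with DMSO. Its change was -0.98 (SE 0.07, adjusted p = 0.000272), with no overlap.

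Mapk14, which encodes p38 alpha, had 7.003, 7.559 and 7.277 with camptothecin, against 7.88, 7.78 and 7.86 with DMSO, a change of -0.56 (SE 0.14, adjusted p = 0.0323). That call was lost in 4 of the 6 fits without 1 array, those without camptothecin replicate 3 or any DMSO array (adjusted p 0.0780 to 0.0961). Map2k3, a p38 kinase, was the riser of the list, with 7.055, 7.004 and 7.100 with camptothecin, against 6.77, 6.44 and 6.51 with DMSO. Its change was 0.48 (SE 0.10, adjusted p = 0.0182), and it did not pass without camptothecin replicate 3 (adjusted p = 0.0607), DMSO replicate 2 (0.0634) or DMSO replicate 3 (0.0667), or with ribosomal centring (change 0.18, adjusted p = 0.202). The remaining 8, among them the JNK genes Mapk8, Mapk9 and Mapk10 and the Gadd45b partner gene Map2k7, had changes of -0.15 to 0.18 and did not pass.

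Genes for the cell cycle and nuclear proteins that bind Gadd45 products rose in 2 of 6 members and fell in 0 (median 0.03), against shares of 11.3% and 9.35% over all genes. With ribosomal centring 1 rose and 3 fell, where 280 of all 14506 genes rose and 5936 fell. Cdkn1a, the p21 inhibitor of cyclin-dependent kinases, had 9.06, 9.30 and 9.20 with camptothecin, against 7.88, 8.08 and 7.93 with DMSO. Its change of 1.22 (SE 0.09, adjusted p = 0.000274) lay between those of Gadd45g and Gadd45b. Pcna, the sliding clamp of DNA replication and repair, changed by 0.44 (SE 0.06, adjusted p = 0.00439), and by 0.15 (adjusted p = 0.0953) with ribosomal centring. Cdk1, Ccnb1, the nucleolar gene Npm1 and Gadd45gip1, which encodes a Gadd45-binding protein that is also a mitochondrial ribosome subunit, had changes of -0.21 to 0.05 and did not pass.

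Genes of the DNA methylation and demethylation machinery mostly did not pass: 1 of 7 rose and 0 fell, against 11.3% and 9.35% of all genes. Of the 7 measured, Ing1, a chromatin reader reported in mouse cells to direct Gadd45a to its sites of action, rose (8.74, 8.85 and 8.75 with camptothecin, against 8.26, 8.22 and 8.14 with DMSO, change 0.57, SE 0.07, adjusted p = 0.00235). The other 6, with the DNA methyltransferases Dnmt1, Dnmt3a and Dnmt3b and the glycosylase Tdg among them, had changes of -0.32 to 0.18. The list's median was 0.16, and with ribosomal centring 3 of the 7 fell, where 5936 of all 14506 genes fell. The Tet genes, Mbd4 and Ercc5 were not analysed here.

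Of the pair of growth factor genes reported in mice as sites of Gadd45b-dependent demethylation, Bdnf fell. Bdnf, which encodes brain-derived neurotrophic factor, had 7.05, 7.41 and 7.33 with camptothecin, against 8.57, 8.64 and 8.44 with DMSO, with no overlap. Its change was -1.29 (SE 0.11, adjusted p = 0.000523), opposite in sign to that of Gadd45b on the same arrays. Fgf1, a fibroblast growth factor, was dim and did not pass (0.19, SE 0.09, adjusted p = 0.184).

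Transcription factors known to control Gadd45 genes included 3 that rose and 3 that fell of 14 measured (median -0.05), against 11.3% higher and 9.35% lower over all genes. With ribosomal centring 2 rose and 8 fell, where 280 of all 14506 genes rose and 5936 fell. Egr1, an early response factor and activator of Gadd45a in human cells, had 10.99, 11.14 and 10.97 with camptothecin, against 9.53, 9.72 and 9.38 with DMSO, a change of 1.496 (SE 0.10, adjusted p = 0.000222). The NF-kB subunit genes moved apart. Rela had 8.79, 8.94 and 8.85 with camptothecin, against 8.14, 8.30 and 8.05 with DMSO (0.70, SE 0.09, adjusted p = 0.00254), while Nfkb1 had 6.31, 6.27 and 6.28 with camptothecin, against 7.09, 7.35 and 7.30 with DMSO (-0.96, SE 0.08, adjusted p = 0.000573).

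Foxo1, a forkhead factor that drives Gadd45a when growth factor signals are low, had 6.44, 6.73 and 6.80 with camptothecin, against 7.48, 7.40 and 7.44 with DMSO (-0.78, SE 0.10, adjusted p = 0.00340). The remaining calls, named after their values were seen, were Cebpb, a basic leucine zipper factor (0.52, and 0.23 with adjusted p = 0.0531 under ribosomal centring), and Stat3, a cytokine-activated factor (-0.57). Brca1, Foxo3, Smad3, Smad4, Atf4, Wt1, Foxo4 and Myc did not pass, with changes of -0.30 to 0.27. The p53 gene itself was not analysed here.

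**Figure D3:**
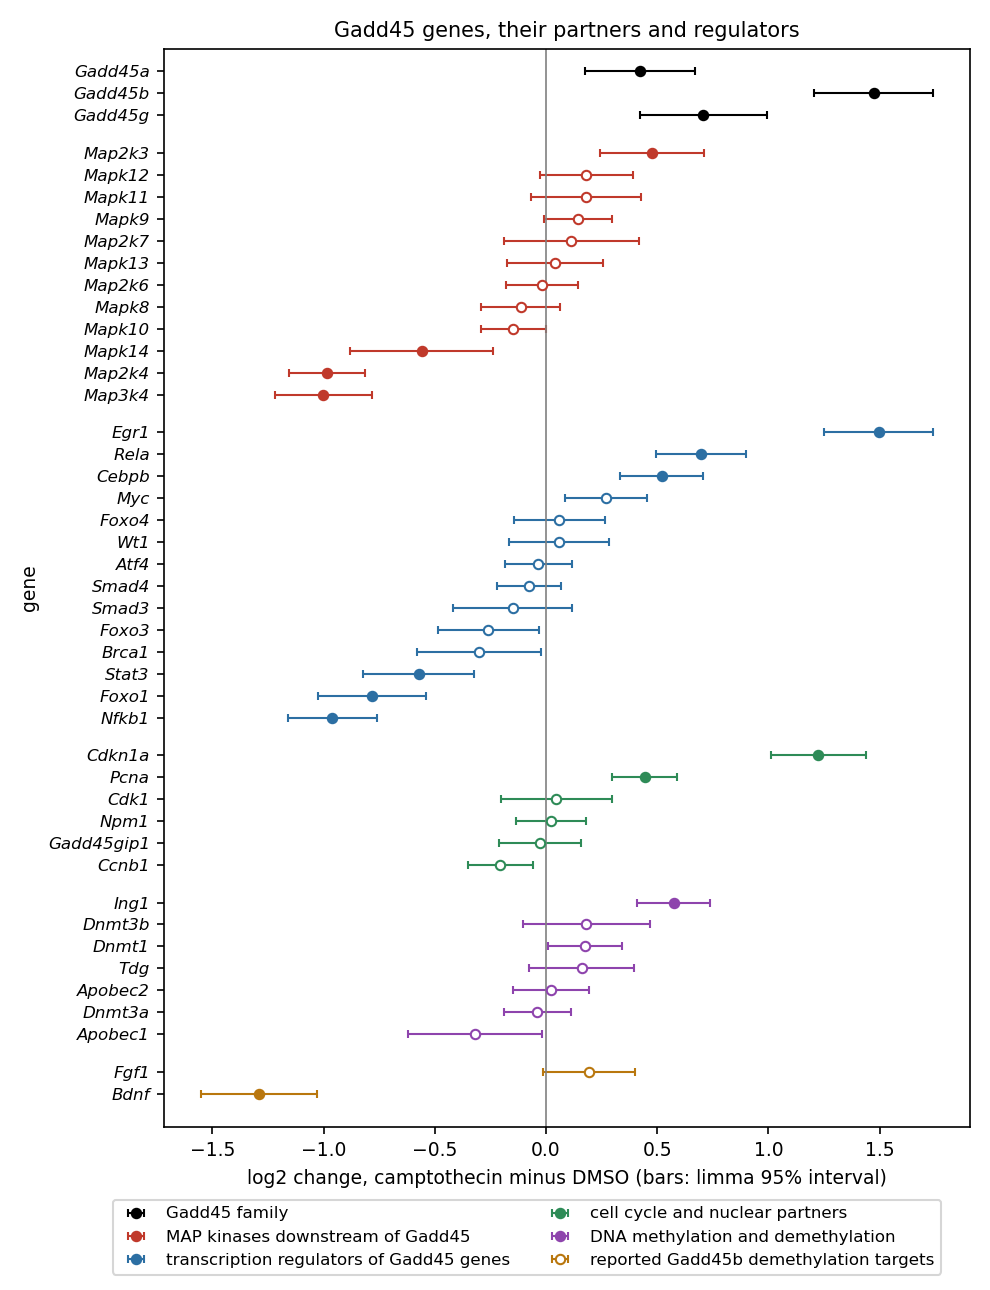
Log2 change, camptothecin minus DMSO, for the 3 Gadd45 genes and 5 lists of partners, regulators and reported targets, with limma's 95% intervals (n = 3 per treatment). Filled points passed the threshold and open points did not. All 3 Gadd45 points lie right of 0, while Map3k4, Map2k4, Nfkb1 and Bdnf lie near or beyond -1.

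Of 3 measured other genes first named for growth arrest and DNA damage, 2 rose and 0 fell, with a list median of 0.64. Over all genes 11.3% were called higher and 9.35% lower. All 3 span under 5 kb (2.10 to 4.82 kb), a class in which 12.4% of genes were called higher. Ppp1r15a, known as Gadd34, which directs a phosphatase to the translation factor eIF2 alpha, had 7.19, 7.66 and 7.49 with camptothecin, against 6.66, 6.54 and 6.62 with DMSO (0.84, SE 0.12, adjusted p = 0.00488). Ddit4, an inhibitor of mTORC1, changed by 0.64 (SE 0.09, adjusted p = 0.00448). Ddit3, known as Gadd153 or CHOP, had overlapping groups and did not pass (0.18, SE 0.11, adjusted p = 0.345).

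Among p53 targets 12 of 19 measured rose and 0 fell, where 11.3% of all genes were called higher and 9.35% lower. The median change was 0.34, beside 0.06 over all genes. The largest changes of the list were those of Tp53inp1 (1.43), Plk3 (1.25), Cdkn1a (1.22) and Phlda3 (1.16), all larger than the change of Gadd45a (0.42). The number called was 7 to 9 without 1 array, 6 with ribosomal centring (and 1 then fell) and 7 at an adjusted p threshold of 0.01. Among genes of neuronal commitment, the setting in which Gadd45g is known in mice, 4 of 9 measured rose and 0 fell (median 0.21), against the same 11.3% and 9.35% of all genes. These were Sox4 (0.51), Cdkn1c (0.42), Hes6 (0.32) and Dll1 (0.31), which encode a neuronal transcription factor, a cell cycle inhibitor, a Hes family repressor and a Notch ligand in that order. The proneural genes Neurog1 (0.02), Neurod1 (-0.01) and Neurod4 (-0.19) did not pass. The count of 4 was 1 to 4 without 1 array, and 1 with ribosomal centring, where 2 fell. With that centring, the background for both lists was 280 of all 14506 genes rising and 5936 falling.

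The genes of the 8 lists that fell had long genomic spans and those that rose mostly short ones. With each gene counted once, the 7 that fell spanned 50.6 to 116 kb (median 78.4 kb), the 24 that rose 1.43 to 93.1 kb (median 6.39 kb), and the 40 that did not pass 1.52 to 292 kb (median 25.1 kb). Map3k4 spans 89.2 kb, Map2k4 105 kb, Nfkb1 116 kb and Bdnf 50.6 kb, against 10.5 kb for Rela and 2.30 kb for Gadd45b. Over all 14506 genes 9.35% fell, against 0.897% of the 3120 spanning under 5 kb, so few short genes fell across the array as well. The share of long genes that fell was not computed, so the 9.35% is not a background of like span for these fallers. The part of span in these changes was not tested.

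**Figure D4:**
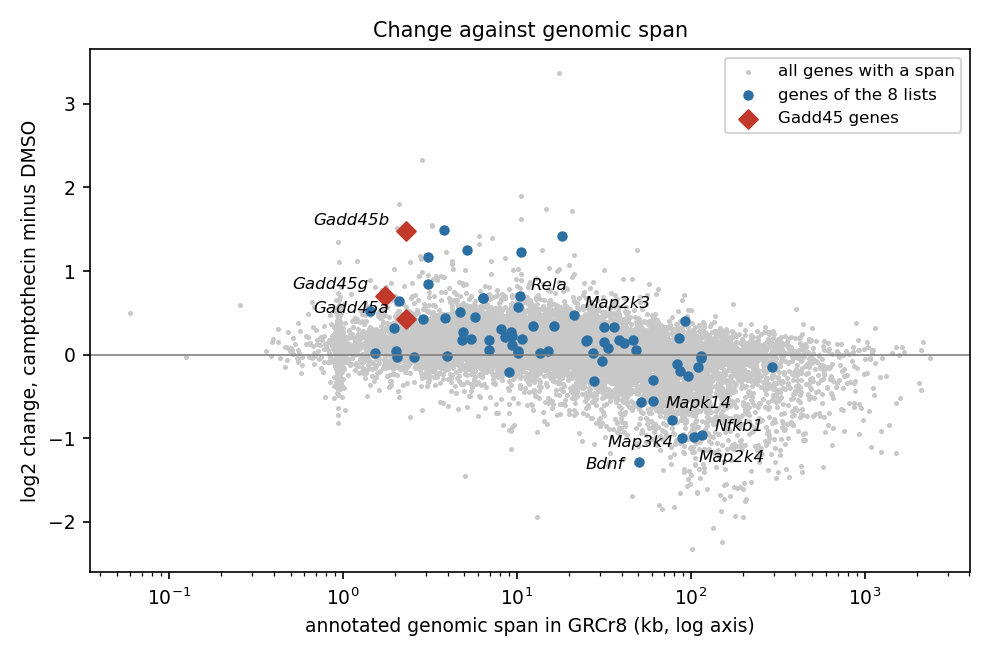
Log2 change, camptothecin minus DMSO, against annotated genomic span in kb (log axis) for all genes with a span (grey), the genes of the 8 lists (blue) and the 3 Gadd45 genes (red). The Gadd45 genes sit at the short end above 0, and the labelled fallers Map3k4, Map2k4, Mapk14, Nfkb1 and Bdnf at spans of 50.6 kb or more.

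Each Gadd45 gene was also set against 14306 others by the root mean square difference of the 6 array values after each gene was centred on its own mean, a measure that reflects the shared treatment groups first. The nearest to Gadd45b were Egr1 (a difference of 0.11 log2 units), the cell cycle regulator gene Sertad1 (0.12) and Klf10, a Kruppel-like factor (0.12). All had changes of 1.33 to 1.54. The nearest to Gadd45g were Ifi30 (0.06), a lysosomal thiol reductase gene, Polr2h (0.07), which encodes a subunit common to the nuclear RNA polymerases, and Ptrh2 (0.07), which encodes a mitochondrial peptidyl-tRNA hydrolase. The nearest to Gadd45a were Ly6e (0.02), a membrane-anchored Ly6 protein gene, Grina (0.03) and the cyclin gene Ccnq (0.03), with changes of 0.40 to 0.43, and of these Grina did not pass (adjusted p = 0.0515). The calls of Ly6e and Ccnq were no firmer than that of Gadd45a: Ly6e lost its call in 8 of 16 alternatives and Ccnq in 7, both with median and ribosomal centring among them, while Grina passed in 7. Pearson's r with the Gadd45 gene was 0.985 to 0.997 over the 6 arrays for these 9 genes. They were picked for closeness on the same arrays, so a high r follows from the choice.

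The labelled cell type could be checked against markers only in part, and Chat and Mnx1 were not analysed here. Of 7 motor neuron markers measured, all but Lhx3 were dim, including Isl1, Slc18a3 and Slc5a7. The only 1 of the 7 that rose, Prph, was itself dim (0.31, adjusted p = 0.0402; named, as are the next, after the values were seen), and its call was lost in 11 of 15 alternatives. Of 9 spinal interneuron markers none was dim, and 5 fell (Slc6a5, Gad2, Slc17a6, Gad1 and Pax2, changes of -1.79 to -0.25) and 0 rose. Over all genes 9.35% were called lower and 11.3% higher. The 5 that fell span 40.1 to 91.2 kb and the rest of the list 1.82 to 8.44 kb. Whether span has a part in this was not tested. The other 4 had changes above 0 that did not pass, Lhx5 (0.26), Slc32a1 (0.23), Lbx1 (0.12) and Lhx1 (0.10). For Slc32a1 and Lbx1 every camptothecin array lay above every DMSO array, as in 27.1% of all genes. The call of Pax2 was lost in 8 of 16 alternatives. The summed linear level of all 9, in which the brightest genes weigh most, was 3140 to 3301 with camptothecin, against 5002 to 5325 with DMSO. That of the 7 motor neuron markers was 401 to 453 with camptothecin, against 438 to 455 with DMSO. These sums rest on different probes, so their heights are not directly comparable. The 7 other marker lists, of sensory neurons, neural progenitors, astrocytes, oligodendrocytes and Schwann cells, fibroblasts, blood-related cells and muscle, had at most 1 call in each direction. Few glial and progenitor markers were dim: 0 of 6 for progenitors, 1 of 5 for astrocytes and 0 of 4 for oligodendrocytes and Schwann cells. Dim markers numbered 1 of 2 for sensory neurons, 2 of 6 for fibroblasts, 5 of 8 for blood-related cells and 4 of 6 for muscle. The part of these cells in the Gadd45 changes was not tested, and fewer cells of a type cannot be told apart from less RNA per cell in such samples.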

How the data were processed

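Total RNA from 6 motor neuron cultures was turned into biotinylated cDNA and run on Rat Gene 1.0 ST arrays (Affymetrix), per the labels' protocols. The authors' deposited values are log2 expression, 1 per transcript cluster and array, and the submitters' processing notes list RMA and oligo. Neither tool's version nor the build behind the probes is given in the sources used here. Array medians were 6.31 to 6.33 with camptothecin and 6.22 to 6.28 with DMSO, Pearson's r was 0.992 to 0.995 within and 0.983 to 0.985 between treatments, and no 2 arrays held identical columns. With 3 arrays per treatment, precision is limited by their number.

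The values were tested as deposited with limma 3.58.1 in R 4.3.3 (lmFit and eBayes, camptothecin minus DMSO, two-sided) over all 29214 clusters, with Benjamini-Hochberg adjustment and a threshold of 0.05. A gene was read from the brightest of its 1-symbol clusters by mean value (15310 clusters have 1 symbol, 323 several and 13581 none). Dim means a mean below the median of all cluster means. The 3 members and the gene lists were chosen with earlier results of these data known. The text names the 3 Gadd45 genes, for each list the 4 called genes (or fewer) that changed most, or the 1 that changed most if none was called, and the 3 genes nearest to each Gadd45 gene, apart from symbols that begin with Snor, Mir, Vom, Olr, RGD or LOC. Promoters, spans and gene order come from RefSeq tables of GRCr8, in which all 3 members matched by gene identifier. The fit was tested on simulated data. Over all clusters, same-numbered arrays of both treatments did not deviate together (correlations of -0.0844, 0.0222 and 0.0845), and the main fit did not treat the numbers as pairs. Such correlations cannot tell whether same-numbered cultures shared a dissection. The alternatives were another quantile normalization, median and ribosomal centring, no dim clusters, the replicate block, trend and robust variance, array weights, 1-symbol clusters only, the mean over clusters of a gene, a threshold of 0.01, and leaving out each array.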

Additional observations from a re-analysis of the deposited data

How the results depend on the processing

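Gadd45b kept its direction and its call in all 16 alternatives (changes of 1.18 to 1.58, adjusted p 9.77e-06 to 0.0029), and Gadd45g in all 15 that gave it a value (0.41 to 0.79, adjusted p 0.00196 to 0.0386). Without dim clusters Gadd45g has no value. Gadd45a stayed above 0 in all 16 but kept its call in 8. It was lost with arrays centred on their median (0.36) or on the ribosomal protein genes (0.13), at a threshold of 0.01 (0.42, adjusted p = 0.0344), and in 5 of 6 fits without 1 array (range over the 6, 0.32 to 0.50; all but that without camptothecin replicate 1). Without 1 array, Gadd45b ranged from 1.37 to 1.58 and Gadd45g from 0.58 to 0.79. The cause was not tested. Under the replicate block the calls of all 3 members held (Gadd45a 0.42, adjusted p = 0.0387, Gadd45b 1.47, adjusted p = 0.00245, Gadd45g 0.71, adjusted p = 0.0256), and among the other genes named those of Mapk14, Hes6, Dll1, Timm13, Prph and Pax2 were lost. Over all genes, 1643 were higher, and 913 with median centring, 280 with ribosomal centring, 892 with the replicate block, 441 at 0.01 and 665 to 1348 without 1 array. Lower genes numbered 1356, and 5936 with ribosomal centring, 814 at 0.01 and 917 to 1218 without 1 array. The differences between members kept their signs in all 8 alternatives run for each (Gadd45b minus Gadd45a 1.02 to 1.08, Gadd45b minus Gadd45g 0.68 to 0.82, Gadd45a minus Gadd45g -0.37 to -0.21), with exact permutation p-values of 0.1 to 0.2. Signs turned for Gng7 with ribosomal centring (-0.11) and for Syk without camptothecin replicate 3 (0.027; range without 1 array, -0.14 to 0.027). The list and named-gene alternatives were chosen after seeing the data.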

Other observations

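The nearest measured protein-coding genes beside each Gadd45 gene in GRCr8, a comparison added after the data were seen, included 1 that passed the test. The shares called over all genes were 11.3% higher and 9.35% lower, with 12.4% higher among genes spanning under 5 kb. Between the Gadd45 gene and each of Timm13, Syk, Secisbp2 and Il12rb2 lies 1 coding gene that was not analysed here. Gadd45b lies between Gng7, a G protein subunit gene, and Timm13, a mitochondrial import gene. Gng7 had log2 values of 7.23, 7.49 and 7.33 with camptothecin, against 6.99, 7.29 and 7.21 with DMSO, and did not pass (0.18, SE 0.11, adjusted p = 0.289). Timm13 rose (7.91, 8.42 and 8.12 with camptothecin, against 7.70, 7.50 and 7.47 with DMSO, change 0.59, SE 0.14, adjusted p = 0.0269), a call lost in 6 of 16 alternatives. Gadd45g lies between Syk (-0.07, SE 0.10) and Secisbp2 (-0.17, SE 0.09), and neither passed. Gadd45a lies between Gng12 (-0.20, SE 0.07, adjusted p = 0.102) and Il12rb2 (0.31, SE 0.10, adjusted p = 0.0780), and neither passed. Spans were 63.8 kb for Gng7, 1.36 kb for Timm13, 74.4 kb for Syk, 31.0 kb for Secisbp2, 124 kb for Gng12 and 88.8 kb for Il12rb2.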
